A study of Homo sapiens with 14 samples.

Results

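The genes described here are 36 established direct targets of the transcription factor p53, picked by gene symbol from the 58780 genes of the deposited count table. The list was drawn up with earlier results of these data known. All 36 symbols were found, and 35 passed the filter on low counts and were tested among 21910 genes. The exception was TRIM22, an interferon- and p53-responsive ubiquitin ligase, which had 1 to 8 reads per library. The assay was precision run-on sequencing (PRO-seq) of nascent RNA, in which engaged RNA polymerases of permeabilized cells extend their transcripts with labelled nucleotides and the labelled RNA is sequenced. A549, a line established from a human lung adenocarcinoma, was used throughout. The 14 libraries fell into 7 groups of 2. The untreated cells, held in 0.01% DMSO, carry a 15 min label. Other cells received 1 µM GSK591, an inhibitor of the arginine methyltransferase PRMT5, or 1 µM MS023, an inhibitor of the type I arginine methyltransferases, each for 15 min or 3 h. The remaining groups received either inhibitor together with 100 nM dexamethasone (Dex), a synthetic glucocorticoid, for 15 min. DMSO is the vehicle of every group. Untreated cells of 3 h and cells given Dex alone are not analysed here, so at 3 h the inhibitors and the time in culture cannot be told apart as sources of a change. The labels do not say that the libraries of a pair came from separate passages or days, so p-values measure the spread between these samples, which may be technical.

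p53 is a sequence-specific activator that is kept low in unstressed cells by MDM2, a ubiquitin ligase whose gene is itself a p53 target. When p53 is stabilized, it raises transcription of genes that halt the cell cycle, promote apoptosis, repair DNA, adjust metabolism and restrain p53 in turn. PRMT5 is known to methylate p53 and to affect the splicing of MDM4 RNA, which encodes an inhibitor of p53.

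p53 binds a pair of 10-base elements, each with a fixed C and G at its core, separated by 0 to 13 bases. Windows of RefSeq (GRCh38.p14) from 250 bases before to 50 bases after a transcription start were held for 27 of the 36 genes, as 38 windows. They were searched on both strands for the p53 consensus element and for pairs of elements with at most 2 mismatches. In a pair the fixed C and G of each element were kept, while the bases between them could mismatch. An exact single element lay in 7 of the 38 windows (18.4%), against 6.63% of all 35116 windows of that length. A pair lay in 6 of the 38 (15.8%), against 2.93% of all windows. The same MDM2 pair lies in windows of neighbouring starts and is counted in each. By gene, 5 of the 27 had a pair, against 3.62% of all genes with windows. A single element lay in 7 of the 27 genes, against 8.06% of all genes with windows. In all, 8 genes had a match of either kind, a share not given here for all genes. They are shown because these are the promoter letters of the genes whose run-on signal is followed below, with the matched bases in capitals. A match is a description of the letters and not a measurement of binding.
AEN: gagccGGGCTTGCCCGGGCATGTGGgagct
DDB2: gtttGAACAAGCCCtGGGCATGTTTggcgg
FAS: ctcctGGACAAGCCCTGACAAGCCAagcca
FDXR: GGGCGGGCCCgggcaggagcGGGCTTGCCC
MDM2: gagctGGTCAAGTTCAGACACGTTCcgaaa
PLK2: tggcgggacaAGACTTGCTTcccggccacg
RPS27L: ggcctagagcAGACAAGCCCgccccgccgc
SESN1: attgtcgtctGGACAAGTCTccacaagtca

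The first 5 of these sequences hold a pair of elements and the last 3 a single exact element. The AEN stretch is chr15:88621301-88621330 (plus strand), where the pair runs from position -34 to -15 relative to the start. The DDB2 stretch, chr11:47214975-47215004 (plus strand), has no mismatch and 1 base between its elements, and lies from position 5 to 25. The FAS stretch is chr10:88991304-88991333 (plus strand), with the pair from position -122 to -103. In FDXR, chr17:74872996-74873025 (minus strand), 10 bases separate the elements, which end 2 bases before the start (position -2). The MDM2 stretch, chr12:68808918-68808947 (plus strand), belongs to starts inside the gene, the region known as its p53-responsive internal promoter. The single elements were at chr5:58460199-58460228 for PLK2, chr15:63157517-63157546 for RPS27L and chr6:109009018-109009047 for SESN1, all on the minus strand.

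Total counts per library were 5768312 to 9606938, and mitochondrial transcripts took 39.8% to 58.0% of them. Counts followed exon length (slope 0.84 ± 0.018 SE on the log scale over 13797 genes) and went down with gene span at a given exon length (slope -0.36 ± 0.009 SE). Exons of 16 of the 36 genes overlap another annotated gene, and the strand setting of the counting is not given in the sources used here, so their values are uncertain. Among them are CDKN1A (146 bases shared with DINOL), PHLDA3 (598 bases with AC096677.2), MDM2, FAS (380 bases with ACTA2), TP53I3, PLK3, SESN1 and TIGAR. BTG2, FDXR, BAX, AEN, DDB2, PPM1D, RPS27L, SPATA18, ZMAT3, GDF15, PLK2 and GADD45A are free of such overlap. The summed level of 11 epithelial and A549 markers was 1753 to 2472 CPM across libraries (CPM is the usual library-scaled read count, here on TMM-scaled library sizes). The sums for 4 leukocyte, 3 endothelial and 4 fibroblast markers stayed at or under 9.36 CPM, and that for 6 alveolar type 2 markers was 14.2 to 19.5 CPM. Of 10 common reference genes, 2 were higher and 3 lower after 3 h of GSK591 than in untreated cells, and 2 were higher after 3 h of MS023. ACTB was among them (log2 fold change 0.51 and 0.53), and the part of these shifts in the results below was not tested.

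In untreated cells the p53 target genes spanned a wide range of nascent signal per exon length, as CPM per kilobase of exon (RPKM; mean ± SD, n = 2). GDF15, a secreted stress cytokine, was highest at 54.1 ± 2.96 RPKM, and TP53I3, a quinone oxidoreductase, followed at 49.8 ± 0.031. PLK2, a polo-like kinase, stood at 39.2 ± 3.09 and BBC3, which encodes the pro-apoptotic protein PUMA, at 37.5 ± 0.73. GDF15 and TP53I3 differed by more than their SDs, and PLK2 and BBC3 did not. The best-known targets were in the middle of the order. CDKN1A, the cyclin-dependent kinase inhibitor p21, ranked 18th at 6.87 ± 0.39 RPKM, followed by BTG2 at 6.37 ± 0.98 and MDM2 at 5.95 ± 0.46. BTG2 did not differ from either neighbour beyond its SD, whereas CDKN1A and MDM2 lay further apart than their SDs. The lowest of the tested genes were CMBL, TIGAR, SPATA18 and ZMAT3, at 0.86, 0.85, 0.74 and 0.67 RPKM.

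After 15 min neither inhibitor changed any p53 target gene by edgeR's quasi-likelihood test at an adjusted p under 0.05. With GSK591 0 of 35 genes were called, where 0.306% of all genes were, and 2 had an unadjusted p under 0.05. With MS023 0 of 35 were called, where 0.183% of all genes were, and 4 had an unadjusted p under 0.05. DESeq2 also called 0 with each. The median log2 fold change was -0.02 with GSK591 (14 of 35 genes above 0) and 0.00 with MS023 (18 of 35), beside all-gene medians of 0.02 and 0.00. The smallest p with GSK591 was that of PHLDA3, a repressor of AKT signalling, at 56.5 and 49.0 CPM against 41.4 and 38.3 CPM in untreated cells. Its log2 fold change was 0.40 ± 0.12 SE (edgeR adjusted p 0.24), and when the groups compared were fitted alone it was called at 0.39 (adjusted p 0.021).

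After 3 h of GSK591 11 of the 35 tested p53 target genes rose against untreated cells and 0 fell, where 7.25% of all genes rose and 11% were called in either direction. With MS023 11 rose and 0 fell, where 5.4% of all genes rose and 7.63% were called in either direction. Of the 17478 genes averaging 2 CPM or more over the 14 libraries, the range in which all 35 lie, 8.86% and 6.60% rose. The median log2 fold change of the 35 genes was 0.25 with GSK591 and 0.30 with MS023, with 29 of 35 above 0 in each case, beside all-gene medians of -0.01 and -0.01. These comparisons share the untreated libraries, so their values are given side by side and not as independent evidence.

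**Figure D1:**
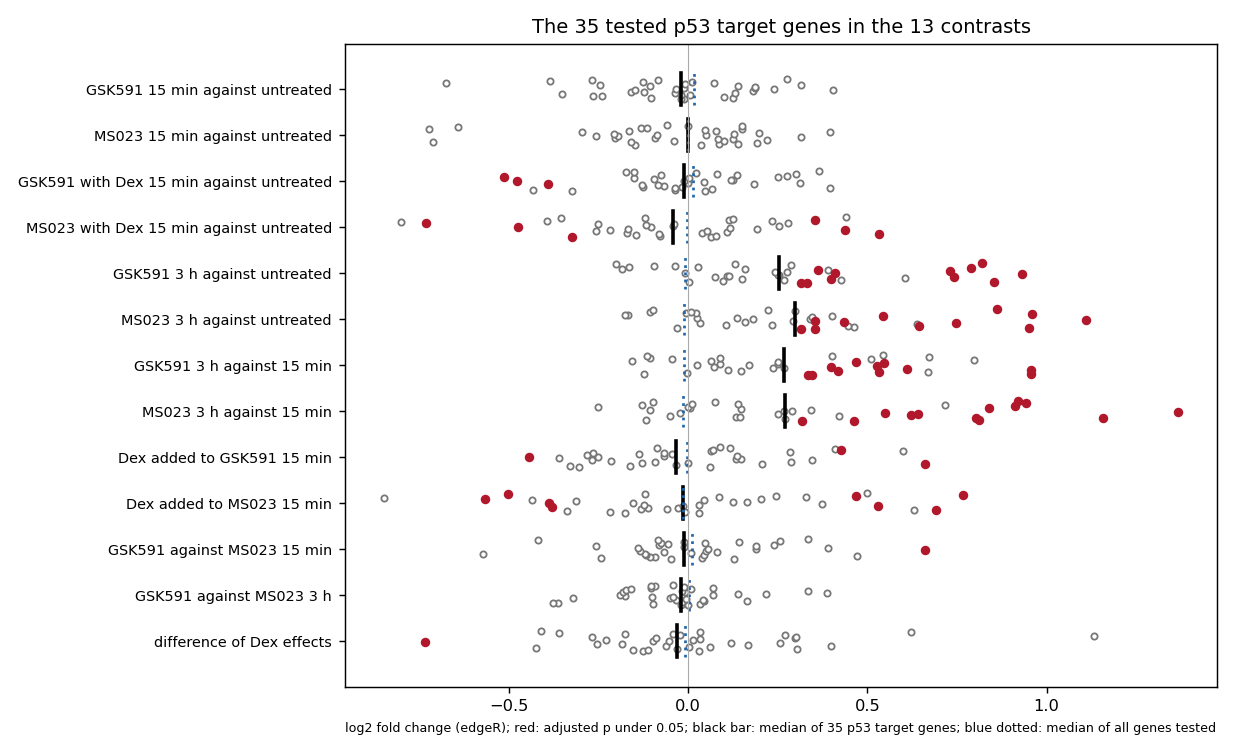
Log2 fold changes of the 35 tested p53 target genes (x axis) in each of the 13 contrasts (y axis); red points had an edgeR adjusted p under 0.05, black bars are medians of the 35 genes and blue dotted lines medians of all genes. The 4 contrasts of 3 h with untreated cells or with 15 min have medians of 0.25 to 0.30, and the other medians, that of GSK591 against MS023 at 3 h among them, lie near 0.

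Among the genes of cell cycle arrest and growth control, 2 of 7 rose with each inhibitor. BTG2, an antiproliferative cofactor of RNA decay and transcription (chromosome 1, 203305491 to 203309602, plus strand), stood at 19.5 and 15.7 CPM in untreated cells. It stood at 33.4 and 30.0 CPM after GSK591 and at 34.1 and 33.8 CPM after MS023, so that every treated library was above every untreated one. It rose by 0.85 ± 0.14 SE and 0.95 ± 0.14 on the log2 scale (edgeR adjusted p 1.75e-05 and 3.46e-06). CDKN1A (chromosome 6, 36676460 to 36687339, plus strand) stood at 20.1 and 21.8 CPM in untreated cells, at 25.5 and 24.9 CPM after GSK591 and at 35.9 and 29.2 CPM after MS023. It was called with MS023, at 0.64 ± 0.14 (edgeR adjusted p 0.0023), and not with GSK591, although neither group overlapped the untreated libraries. PLK3, a stress-responsive polo-like kinase, went from 34.8 and 32.6 CPM to 46.8 and 42.7 CPM with GSK591 (0.41 ± 0.11 on the log2 scale, edgeR adjusted p 0.013) and was not called with MS023. With the groups compared fitted alone, or with a replicate block, PLK3 was called with MS023 (0.34 in each, edgeR adjusted p 0.049). GADD45A, CCNG1, PLK2 and SERTAD1 were not called at 3 h against untreated cells.

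Of the 4 genes that feed back on p53, 1 was called with each inhibitor, PPM1D with GSK591 and MDM2 with MS023. A call with 1 inhibitor alone is not a tested difference between them. PPM1D, which encodes the phosphatase WIP1 that removes activating phosphates from p53, rose with GSK591 from 25.3 and 24.1 CPM to 37.2 and 44.9 CPM (edgeR adjusted p 2.59e-05), a log2 fold change of 0.73 ± 0.12 SE. After MS023 it stood at 28.7 and 34.4 CPM and was not called. MDM2 (chromosome 12, 68808176 to 68850686, plus strand) rose with MS023 from 83.3 and 74.8 CPM to 92.6 and 109.9 CPM (log2 fold change 0.35 ± 0.10, edgeR adjusted p 0.022). After GSK591 it stood at 91.4 and 96.9 CPM, above both untreated libraries but not called. With the groups compared fitted alone, MDM2 was called with GSK591 too (0.24, edgeR adjusted p 0.040). TRIAP1, a small mitochondrial survival protein, and FBXO22, a ubiquitin ligase subunit, were not called.

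Among the genes of apoptosis and death receptors, 5 of 11 rose with each inhibitor, and they were AEN, BAX, PHLDA3, SPATA18 and ZMAT3 in both cases. PHLDA3 (chromosome 1, 201464383 to 201469237, minus strand) had the largest fold change among the genes called. It went from 41.4 and 38.3 CPM to 67.5 and 84.8 CPM with GSK591 and to 89.1 and 82.7 CPM with MS023. It rose by 0.93 ± 0.12 SE and 1.11 ± 0.12 on the log2 scale (edgeR adjusted p 3.74e-07 and 1.01e-08). ZMAT3, an RNA-binding zinc finger protein of low signal, went from 6.13 and 6.79 CPM to 10.8 and 12.1 CPM with GSK591 (edgeR adjusted p 0.0064), a log2 fold change of 0.82 ± 0.21. With MS023 it stood at 13.6 and 9.56 CPM (0.86 ± 0.21, adjusted p 0.0056), and without MS023 3 h replicate 1 the estimate was 0.57 (adjusted p 0.29). SPATA18, a mediator of mitochondrial quality control, went from 3.44 and 3.83 CPM to 7.28 and 5.23 CPM with GSK591 and 6.87 and 7.34 CPM with MS023, the smallest signal of the called genes. It rose by 0.79 ± 0.26 and 0.96 ± 0.25 on the log2 scale (edgeR adjusted p 0.037 and 0.012). Both SPATA18 calls were lost with DESeq2 (0.79 and 0.97, DESeq2 adjusted p 0.18 and 0.098). Over the alternatives the estimates ran from 0.53 to 0.99 with GSK591 and from 0.89 to 1.05 with MS023.

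AEN and BAX changed less but at higher signal. AEN, a p53-induced exonuclease, stood at 73.0 and 69.9 CPM in untreated cells, at 91.5 and 88.4 CPM after GSK591 and at 92.7 and 89.8 CPM after MS023. It rose by 0.33 ± 0.095 SE and 0.35 ± 0.096 on the log2 scale (edgeR adjusted p 0.017 and 0.014). BAX, which permeabilizes the outer mitochondrial membrane, went from 77.8 and 68.4 CPM to 90.95 and 90.92 CPM with GSK591 and 91.7 and 90.1 CPM with MS023. It rose by 0.31 ± 0.098 and 0.31 ± 0.099 on the log2 scale (edgeR adjusted p 0.030 and 0.041). These BAX calls were lost with DESeq2 (DESeq2 adjusted p 0.067 and 0.096) and without the count filter (edgeR adjusted p 0.059 and 0.086). Without untreated replicate 2 the estimates were 0.23 and 0.24 for BAX, and 0.31 and 0.33 for AEN. The death receptor genes FAS, TNFRSF10A and TNFRSF10B and the BH3-only genes BBC3 and PMAIP1 were not called with either inhibitor. FAS, of low signal, still stood higher at 3 h, at 6.86 and 6.51 CPM with GSK591 and 6.43 and 7.34 CPM with MS023. Its untreated libraries were at 4.41 and 4.38 CPM. With library size alone FAS was called with GSK591 (0.73, edgeR adjusted p 0.049). BBC3, with the highest signal per length of this group, stood at 120.8 and 117.5 CPM in untreated cells and at 107.6 to 125.2 CPM in the 4 libraries of 3 h.

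Of the 4 genes of DNA repair and nucleotide supply, DDB2, a subunit of the UV-damage recognition complex, rose with GSK591 from 70.2 and 67.6 CPM to 95.4 and 86.0 CPM (log2 fold change 0.40 ± 0.097 SE, edgeR adjusted p 0.0041). With MS023 it stood at 79.4 and 82.7 CPM and was not called. XPC, POLH and RRM2B were not called. In the metabolic group 2 of 6 genes rose, and they were FDXR and RPS27L with both inhibitors. FDXR, ferredoxin reductase of mitochondrial electron transfer (chromosome 17, 74862497 to 74873031, minus strand), went from 31.3 and 33.7 CPM to 52.4 and 56.3 CPM with GSK591 and to 56.4 and 52.5 CPM with MS023. It rose by 0.74 ± 0.11 and 0.75 ± 0.11 on the log2 scale (edgeR adjusted p 6.46e-06 and 8.12e-06). RPS27L, a ribosomal protein paralog, stood at 83.5 and 71.9 CPM in untreated cells, at 86.9 and 113 CPM after GSK591 and at 96.0 and 131.6 CPM after MS023. It rose by 0.36 ± 0.12 and 0.54 ± 0.12 on the log2 scale (edgeR adjusted p 0.044 and 0.0020). These calls rested on the higher library of each pair: without GSK591 3 h replicate 2 the value was 0.15 (adjusted p 0.64), and without MS023 3 h replicate 2 it was 0.32 (adjusted p 0.18). SESN1, TIGAR, TP53I3 and CMBL were not called.

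GDF15 was the member of the signalling group that moved, with MS023. Its libraries stood at 117.3 and 108.6 CPM untreated and at 156.9 and 148.5 CPM after MS023 (log2 fold change 0.44 ± 0.11 SE, edgeR adjusted p 0.0051). After GSK591 they stood at 108.6 and 136.1 CPM and overlapped the untreated range. EPHA2, an ephrin receptor, and KITLG, the ligand of the receptor KIT, were not called.

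Among these 3 h calls, BTG2, FDXR and PHLDA3 with both inhibitors and PPM1D with GSK591 were kept under every alternative tried, left-out libraries included. With DESeq2 7 of the 11 GSK591 genes were called, without BAX, PLK3, RPS27L and SPATA18. Of the 11 MS023 genes 8 were called with DESeq2, without BAX, MDM2 and SPATA18. With scaling by library size alone 7 of the 11 MS023 genes were, without AEN, BAX, GDF15 and MDM2. The shares of all genes called under these alternatives are not given here, so the counts cannot be set against a background. Leaving out 1 library leaves a group with a lone sample, assumed to vary like the other groups. The GSK591 count was then 6 without untreated replicate 1, 5 without untreated replicate 2, and 6 and 7 without GSK591 replicates 1 and 2. The MS023 count was 6 and 5 without the untreated replicates and 5 and 7 without MS023 replicates 1 and 2.

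**Figure D2:**
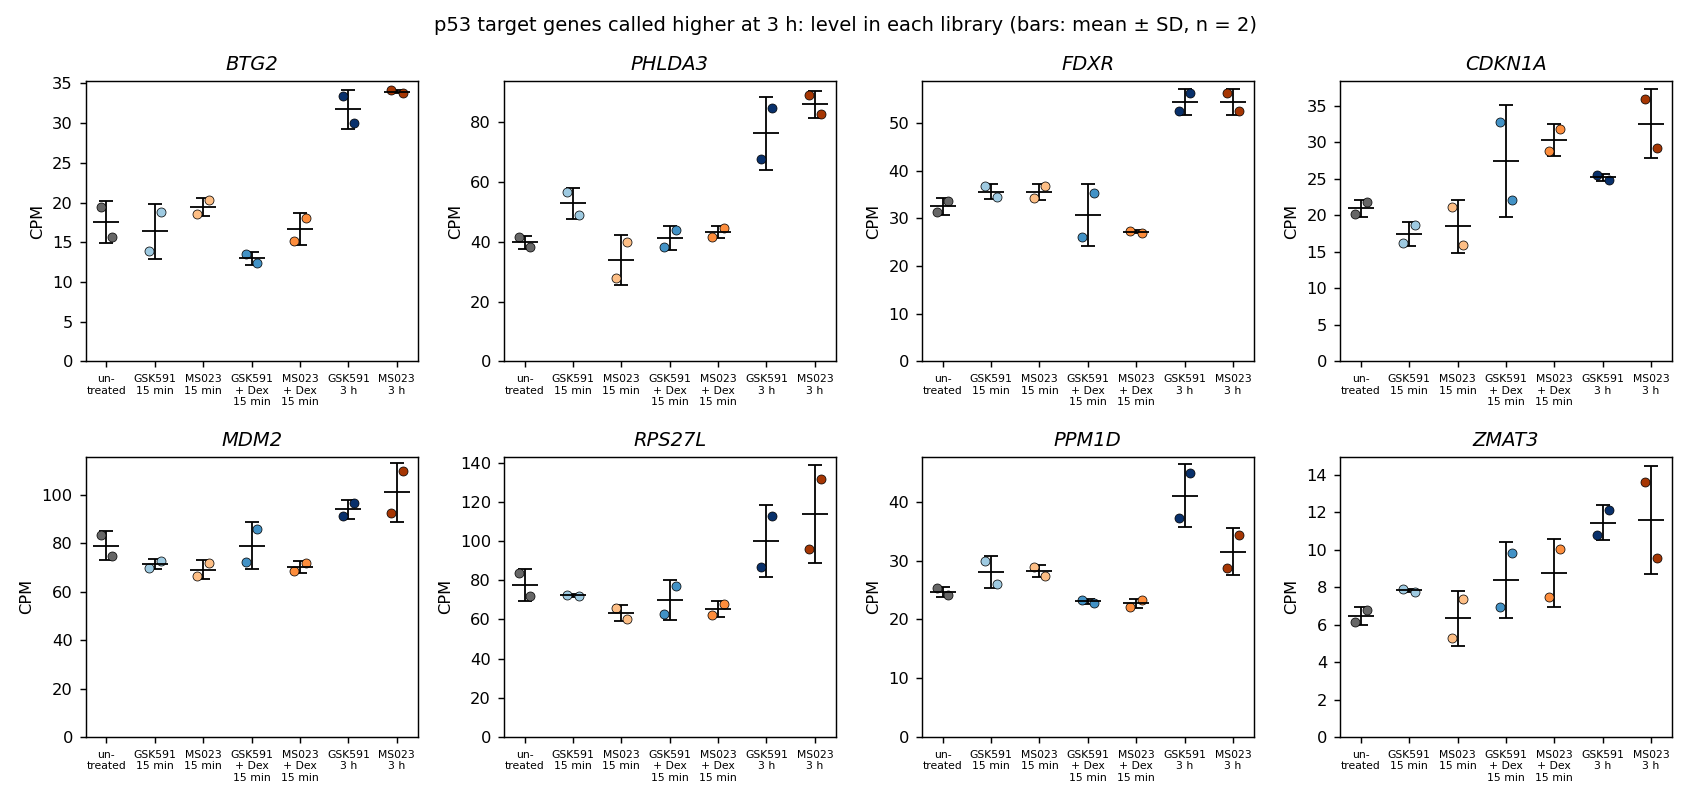
Level in CPM on TMM-scaled library sizes (y axes, from 0) of 8 p53 target genes called at 3 h in at least 1 comparison, in each of the 14 libraries by group (x axes); points are libraries and bars mean ± SD (n = 2). For BTG2, PHLDA3 and FDXR the 4 libraries of 3 h lie above all 10 others, as with FDXR at 52.4 to 56.4 CPM.

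The comparison of 3 h with 15 min of the same inhibitor uses no untreated library, and the pair of inhibitor comparisons shares no library. With GSK591 11 of 35 p53 target genes rose between the times and 0 fell, where 3.65% of all genes rose and 6.41% were called in either direction. With MS023 13 of 35 rose and 0 fell, where 7.65% of all genes rose and 12% were called in either direction. Among genes of at least 2 CPM on average, 4.43% and 9.23% rose. The medians of the 35 genes were 0.27 and 0.27, beside all-gene medians of -0.01 and -0.01. The 10 common reference genes had medians of 0.02 with GSK591 (7 above 0, 1 called higher) and 0.28 with MS023 (9 above 0, 3 called higher). With MS023 the reference genes thus shifted by as much at the median, and their part in the rise was not tested. The inhibitors had 8 called p53 target genes in common, 72.7% of the GSK591 genes and 61.5% of the MS023 genes, and all 8 rose in both. These were AEN, BAX, BTG2, CDKN1A, FDXR, MDM2, PHLDA3 and RPS27L. Across the 35 genes, which are not independent replicates, the fold changes correlated at Pearson's r of 0.73, and 29 had the same sign. The like agreement over all genes is not given here, so it cannot be said to be particular to p53 target genes.

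**Figure D3:**
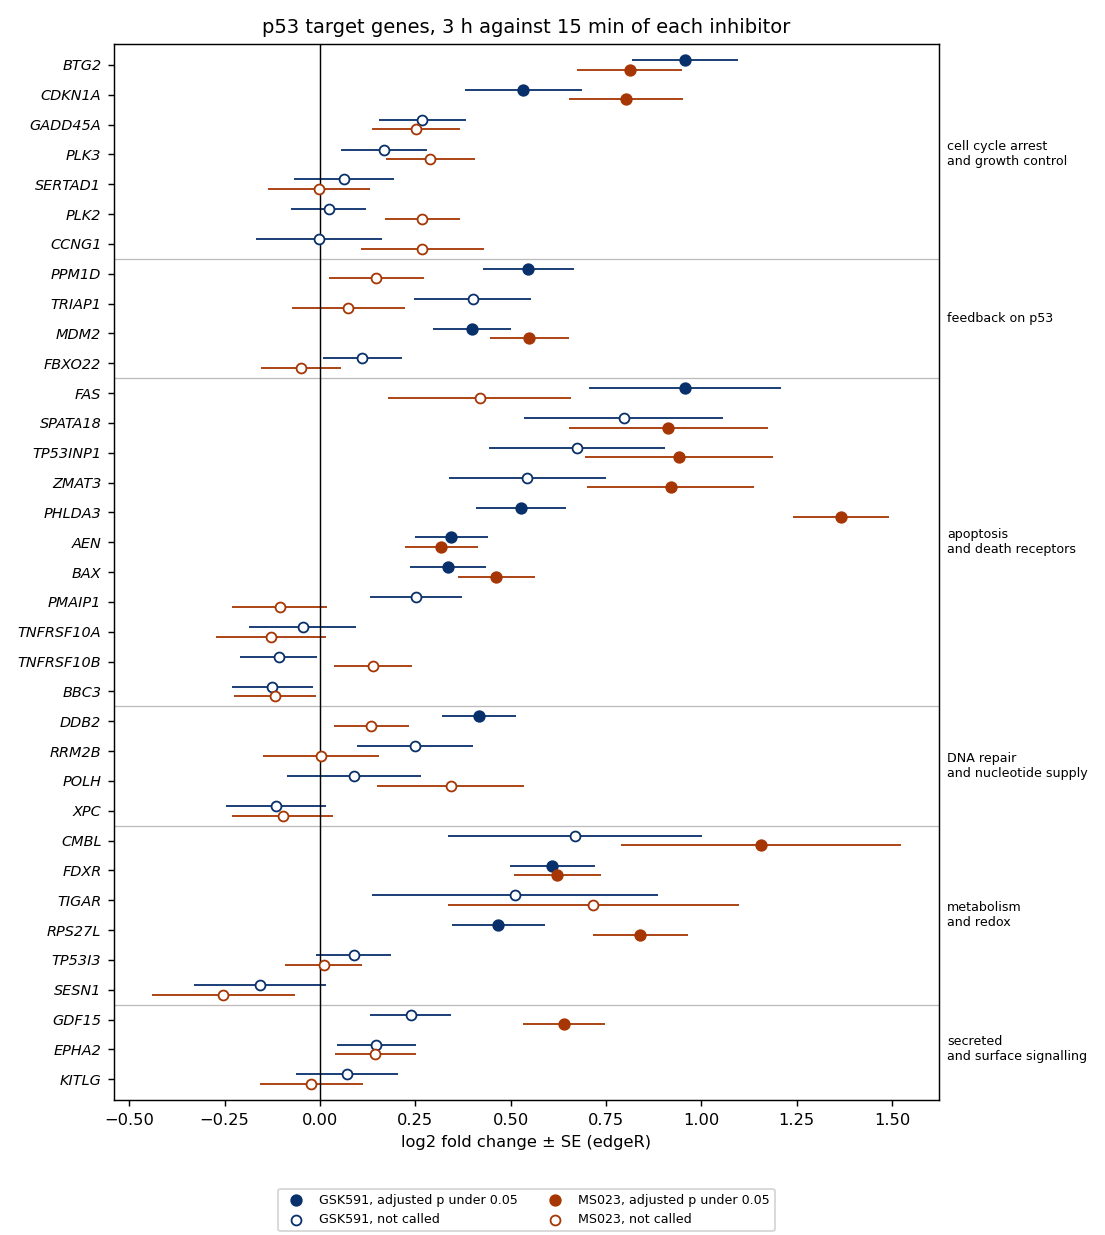
Log2 fold change ± SE (x axis, edgeR) between 15 min and 3 h of GSK591 (blue) and MS023 (brown) for each of the 35 tested p53 target genes (y axis, by role); filled points had an adjusted p under 0.05. The points lie above 0 for 29 genes with GSK591 and 27 with MS023, and PHLDA3 with MS023 is the highest at 1.37.

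CDKN1A was called between the times with both inhibitors. It stood at 16.2 and 18.6 CPM at 15 min and 25.5 and 24.9 CPM at 3 h of GSK591 (0.53 ± 0.15 SE on the log2 scale, edgeR adjusted p 0.027). With MS023 it went from 21.1 and 15.9 CPM to 35.9 and 29.2 CPM (0.80 ± 0.15, adjusted p 0.00016). The GSK591 call of CDKN1A was lost with DESeq2 (0.55, DESeq2 adjusted p 0.085) and with library size alone (0.59, edgeR adjusted p 0.057). Its estimate with GSK591 ran from 0.44 to 0.63 over the alternatives. MDM2 stood at 69.9 and 72.8 CPM at 15 min of GSK591 and at 66.4 and 71.9 CPM at 15 min of MS023, below each 3 h library. It rose by 0.40 ± 0.10 and 0.55 ± 0.10 on the log2 scale (edgeR adjusted p 0.012 and 0.00019).

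BTG2 went from 13.9 and 18.8 CPM at 15 min of GSK591 by 0.96 ± 0.14 SE on the log2 scale (edgeR adjusted p 1.79e-05), and from 18.6 and 20.3 CPM at 15 min of MS023 by 0.81 ± 0.14 (adjusted p 4.25e-05). FDXR stood at 36.7 and 34.5 CPM and at 34.3 and 36.8 CPM in the 15 min groups, and rose by 0.61 ± 0.11 (edgeR adjusted p 0.00040) and 0.62 ± 0.11 (adjusted p 0.00012). PHLDA3 rose by 0.53 ± 0.12 with GSK591 (edgeR adjusted p 0.0038) from 56.5 and 49.0 CPM, and by 1.37 ± 0.12 with MS023 (adjusted p 1.77e-10) from 27.9 and 39.8 CPM. The 3 h groups of this gene overlapped each other, and its 15 min groups did not. RPS27L rose by 0.47 ± 0.12 from 72.7 and 71.8 CPM with GSK591 (edgeR adjusted p 0.013) and by 0.84 ± 0.12 from 66.0 and 60.3 CPM with MS023 (adjusted p 3.66e-06), and without GSK591 3 h replicate 2 the former was 0.27 (adjusted p 0.39). AEN rose by 0.34 and 0.32, and BAX by 0.34 and 0.46, on the log2 scale.

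The genes called between the times with GSK591 and not MS023 were DDB2 (0.42 ± 0.097 SE), PPM1D (0.55 ± 0.12) and FAS. FAS, a death receptor gene of low signal, stood at 2.94 and 3.93 CPM at 15 min and 6.86 and 6.51 CPM at 3 h (log2 fold change 0.96 ± 0.25, edgeR adjusted p 0.014). Those called with MS023 and not GSK591 were CMBL, GDF15, SPATA18, TP53INP1 and ZMAT3. GDF15 went from 102.0 and 93.8 CPM to 156.9 and 148.5 CPM (0.64 ± 0.11, edgeR adjusted p 3.3e-05). TP53INP1, an autophagy and apoptosis cofactor, went from 3.78 and 4.65 CPM to 9.05 and 6.79 CPM (0.94 ± 0.25, adjusted p 0.0074). CMBL, a carboxymethylenebutenolidase homolog, went from 2.16 and 1.20 CPM to 3.60 and 4.29 CPM (1.16 ± 0.37, adjusted p 0.031), at the lowest signal of any gene called. SPATA18 rose by 0.91 ± 0.26 (edgeR adjusted p 0.015) and ZMAT3 by 0.92 ± 0.22 (adjusted p 0.0031). Whether the time effect of these genes differs between the inhibitors was not tested. With DESeq2 10 of the 13 MS023 genes were called, without CMBL, SPATA18 and TP53INP1 (DESeq2 adjusted p 0.12, 0.098 and 0.051). With scaling by library size alone 8 of the 13 MS023 genes were called, and that scaling puts the median of all genes at -0.16 in this contrast. The GSK591 count was 5 and 3 without GSK591 15 min replicates 1 and 2 and 6 and 3 without the 3 h replicates 1 and 2, and the MS023 count was 8 without MS023 15 min replicate 1.

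Compared directly, the inhibitors differed at 1 p53 target gene after 15 min, where 1.09% of all genes were called. That gene was PHLDA3, at 56.5 and 49.0 CPM with GSK591 and 27.9 and 39.8 CPM with MS023, with a log2 difference of 0.66 ± 0.13 SE (edgeR adjusted p 0.0039). The call was lost without GSK591 15 min replicate 1 (0.55, adjusted p 0.21), without MS023 15 min replicate 1 (0.41, adjusted p 0.62) and with library size alone (0.54, adjusted p 0.20). After 3 h 0 of 35 genes differed, where 0% of all genes were called. DESeq2 also called 0, and 4 had an unadjusted p under 0.05. PPM1D was higher with GSK591 by 0.39, with a 95% interval of 0.15 to 0.63 (edgeR adjusted p 0.52). CDKN1A was lower by 0.38 (-0.38), with an interval from -0.66 to -0.09 (adjusted p 0.65), and GDF15 by 0.32 (-0.32), with an interval from -0.53 to -0.11 (adjusted p 0.62). CCNG1, a cyclin that recruits a phosphatase to MDM2, had a difference of -0.36 (adjusted p 0.77). These intervals leave room for differences of a size like the 3 h changes themselves, so the inhibitors cannot be said to act alike on these genes.

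Dex added to an inhibitor for 15 min changed p53 target genes in both directions. Beside GSK591 it changed 3 of 35 (8.57%), 2 higher and 1 lower, where 3.7% of all genes were called. Beside MS023 it changed 8 (22.9%), 4 higher and 4 lower, where 8.97% of all genes were called. Among genes of at least 2 CPM on average, 4.49% were called beside GSK591 and 10.9% beside MS023. The medians were -0.03 and -0.01, beside all-gene medians of -0.00 and -0.02. The 3 genes called beside GSK591 were CDKN1A, TP53I3 and PLK2, all of them also called beside MS023 in the same direction, which is 37.5% of the MS023 genes. The Dex comparisons share no library. Across the 35 genes the fold changes correlated at Pearson's r of 0.53, and 26 had the same sign. Here too the like agreement over all genes is not given.

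**Figure D4:**
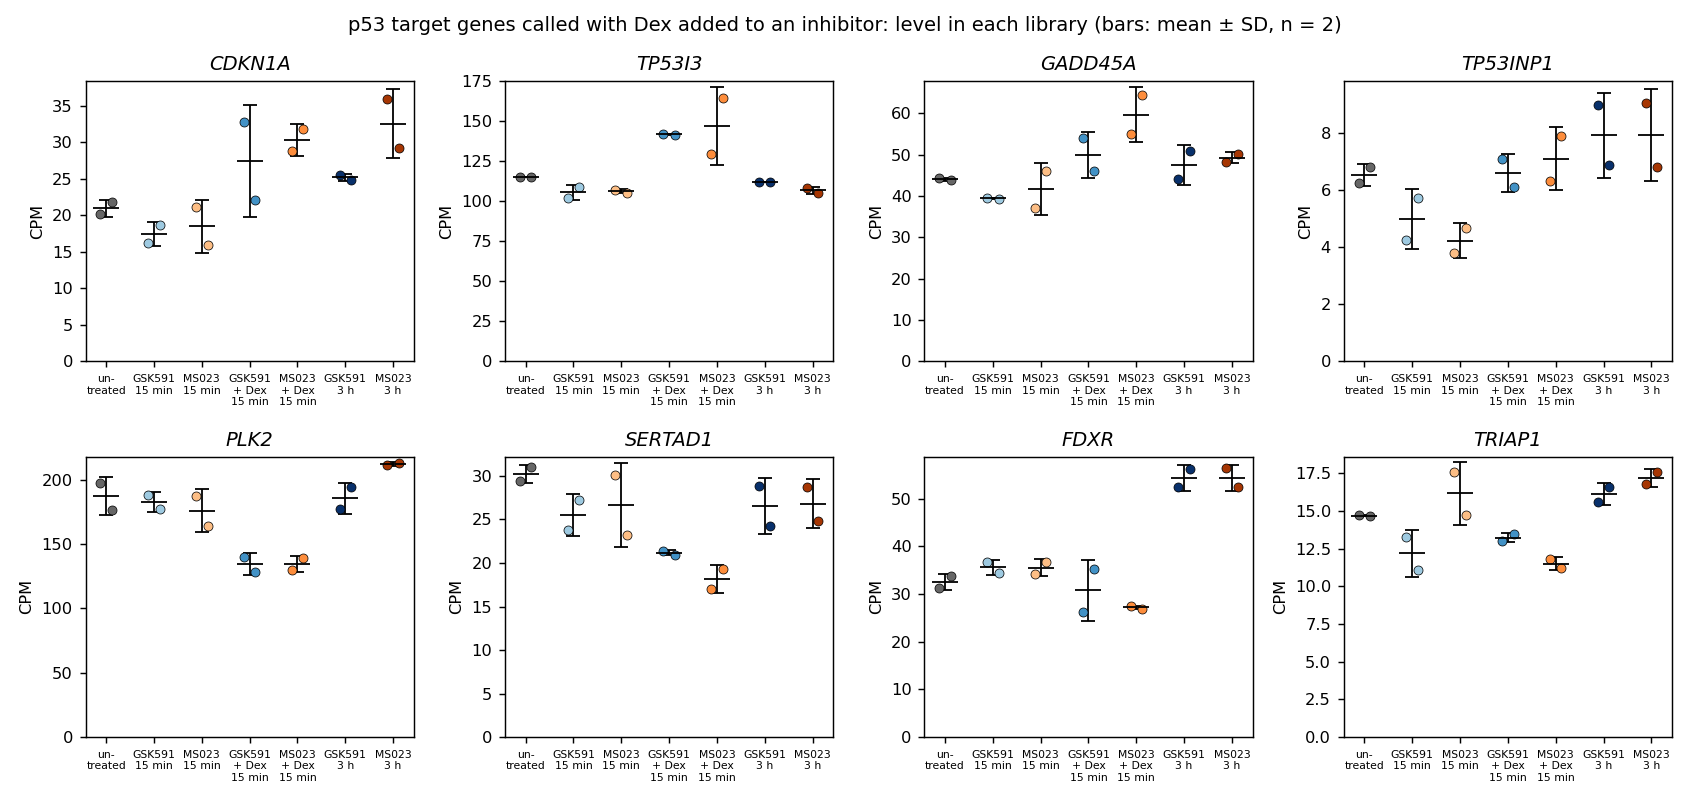
Level in CPM (y axes, from 0) of the 8 p53 target genes called with Dex beside at least 1 inhibitor, in each of the 14 libraries by group (x axes); points are libraries and bars mean ± SD (n = 2). PLK2 lies at 128.5 to 140.3 CPM in the 4 libraries given Dex and at 164.1 CPM or above in the other 10.

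CDKN1A stood at 32.8 and 22.04 CPM with GSK591 and Dex, against 16.2 and 18.6 CPM with GSK591 alone (log2 fold change 0.66 ± 0.16 SE, edgeR adjusted p 0.00885). With MS023 and Dex it stood at 28.7 and 31.9 CPM, against 21.1 and 15.9 CPM with MS023 alone (0.69 ± 0.15, adjusted p 0.0015). Beside each inhibitor, both libraries with Dex lay above both without it, but without GSK591 and Dex replicate 1 the former value was 0.34 (adjusted p 0.31). TP53I3 went from 102.3 and 108.7 CPM to 141.9 and 141.7 CPM beside GSK591 (0.43 ± 0.099, edgeR adjusted p 0.0073). Beside MS023 it went from 107.1 and 105.4 CPM to 129.8 and 164.4 CPM (0.47 ± 0.098, adjusted p 0.00097), and without MS023 and Dex replicate 2 the value was 0.30 (adjusted p 0.15). TP53I3 was not called at 3 h, where its 4 libraries lay at 105.4 to 112.2 CPM.

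PLK2 was lower with Dex in both cases. It stood at 188.2 and 177.5 CPM with GSK591 and at 140.3 and 128.5 CPM with Dex added (-0.44 ± 0.10 SE on the log2 scale, edgeR adjusted p 0.0059). With MS023 it stood at 187.7 and 164.1 CPM, and at 130.2 and 139.0 CPM with Dex added (-0.39 ± 0.10, adjusted p 0.0082). Its untreated libraries were at 197.6 and 176.7 CPM, so PLK2 was also lower in both Dex groups against untreated cells (-0.48 in each, edgeR adjusted p 0.0019 and 0.0011).

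Beside MS023, GADD45A, a sensor of DNA damage that inhibits CDK1, rose from 37.2 and 46.1 CPM to 54.9 and 64.3 CPM (0.53 ± 0.11 SE, edgeR adjusted p 0.0012). TP53INP1 rose from 3.78 and 4.65 CPM to 6.31 and 7.88 CPM (0.77 ± 0.25, edgeR adjusted p 0.043). That call was lost without the count filter (0.74, edgeR adjusted p 0.067) and with library size alone (0.59, edgeR adjusted p 0.16). Over the alternatives the TP53INP1 estimate ran from 0.59 to 0.92. SERTAD1, a cofactor of CDK4 and E2F1, fell from 30.1 and 23.27 CPM to 17.1 and 19.3 CPM (-0.57 ± 0.14, edgeR adjusted p 0.0053), and without MS023 15 min replicate 1 the value was -0.36 (adjusted p 0.36). FDXR, which rose at 3 h, fell here from 34.3 and 36.8 CPM to 27.5 and 26.9 CPM (-0.38 ± 0.12, edgeR adjusted p 0.040). TRIAP1 fell from 17.6 and 14.7 CPM to 11.8 and 11.2 CPM (-0.50 ± 0.16, edgeR adjusted p 0.033). Over the alternatives the estimates ran from -0.56 to -0.33 for FDXR and from -0.67 to -0.36 for TRIAP1. With DESeq2 the MS023 count was 5, without FDXR, TP53INP1 and TRIAP1.

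**Figure D5:**
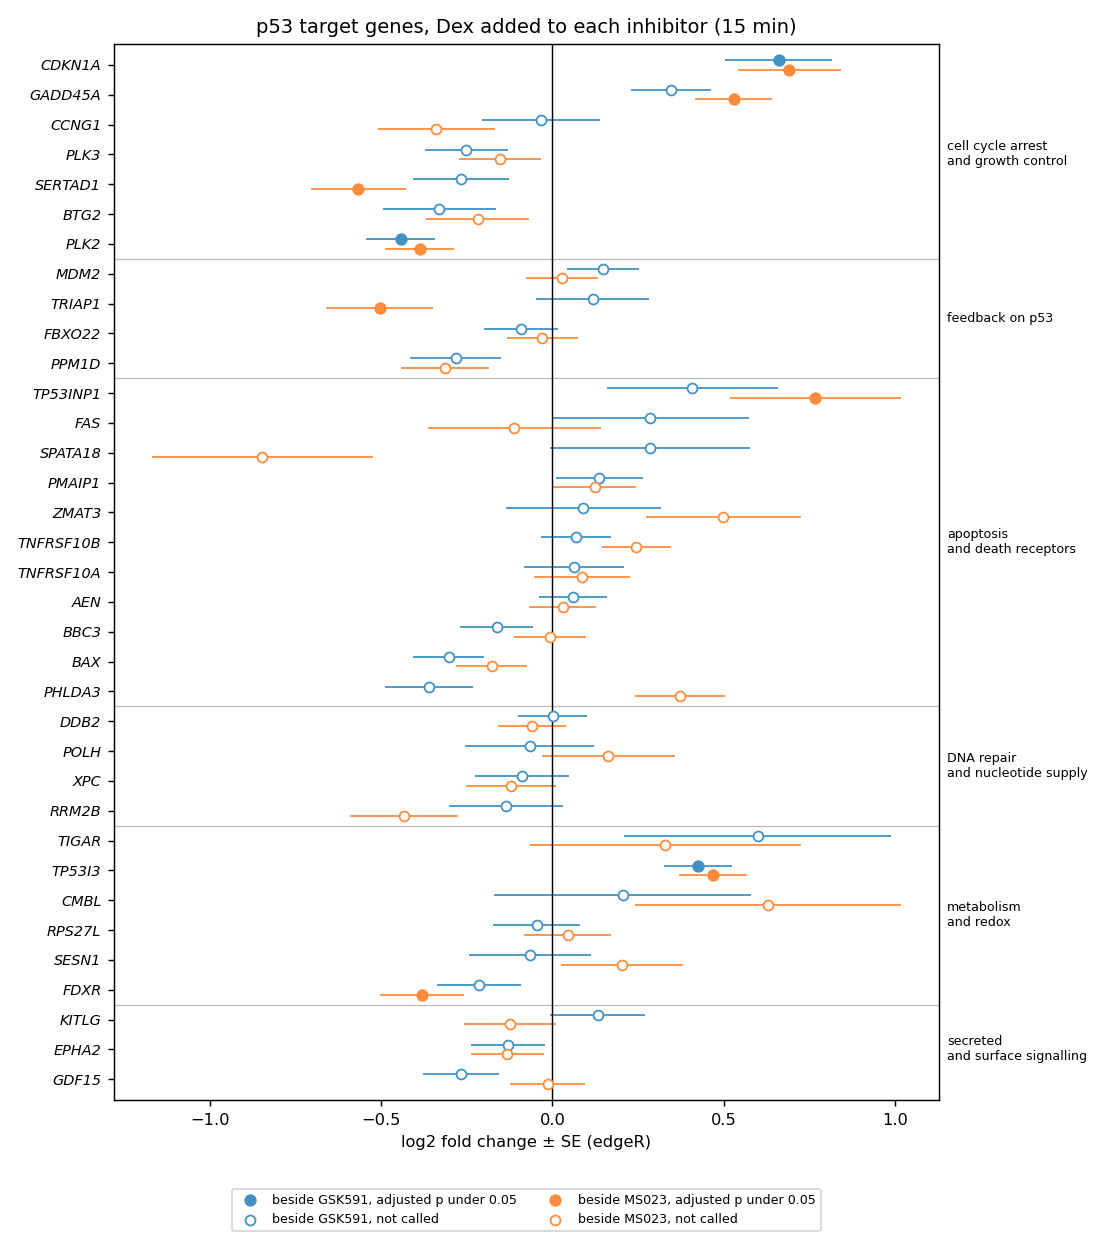
Log2 fold change ± SE (x axis, edgeR) of Dex added for 15 min to GSK591 (blue) or MS023 (orange) for each of the 35 tested p53 target genes (y axis, by role); filled points had an adjusted p under 0.05. CDKN1A and TP53I3 lie above 0 and PLK2 below 0 beside both inhibitors; under library size alone as scaling these values are lower throughout.

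The direction of the Dex calls depended on the scaling. With library size alone, under which the median of all genes is -0.21 beside GSK591 and -0.19 beside MS023, the splits were 0 higher and 4 lower, and 0 higher and 7 lower. PLK2 remained among the calls, and the estimate of CDKN1A was 0.47 (adjusted p 0.11) and 0.53 (adjusted p 0.057). The count beside GSK591 was 0 without GSK591 15 min replicate 1. Beside MS023 it was 2 without MS023 15 min replicate 1, and 3 without either MS023 and Dex library.

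Against untreated cells, GSK591 with Dex changed 3 of 35 genes (8.57%), where 5.85% of all genes were called. Among genes of at least 2 CPM on average 7.01% were called, a share near that of the p53 target genes, and 3.14% fell. All 3 of the p53 target genes called fell. They were PLK2, SERTAD1 (-0.51 ± 0.14 SE, edgeR adjusted p 0.017) and GDF15 (-0.39 ± 0.11, edgeR adjusted p 0.024). MS023 with Dex changed 6 (17.1%), where 7.66% of all genes and 9.27% of genes of at least 2 CPM on average were called. CDKN1A (0.53), GADD45A (0.44) and TP53I3 (0.35) rose on the log2 scale, while PLK2 (-0.48), SERTAD1 (-0.73) and BAX (-0.33) fell. With library size alone 2 of these 6 were called, and without untreated replicates 1 and 2 the count was 1 and 2. For GSK591 with Dex it was 0 and 1 without these replicates. Without MS023 and Dex replicate 2 the 3 higher calls were lost, with CDKN1A at 0.46 (adjusted p 0.19), GADD45A at 0.32 (adjusted p 0.24) and TP53I3 at 0.17 (adjusted p 0.51), and 2 lower calls were left.

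The effect of Dex differed between the inhibitors at 1 gene, where 1.15% of all genes were called. PHLDA3 had a Dex effect of -0.36 beside GSK591 and 0.37 beside MS023, neither called on its own, and a difference of -0.73 ± 0.18 SE (edgeR adjusted p 0.032). Its libraries with Dex stood at 38.3 and 43.9 CPM and at 41.7 and 44.6 CPM, and overlapped. This difference therefore rests on the same 15 min libraries without Dex that separated the inhibitors above. DESeq2 did not call it (-0.72, adjusted p 0.13), and without MS023 15 min replicate 1 it was -0.48 (adjusted p 0.51).

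A list of 38 further p53 targets, read by counts only, moved in both directions at 3 h. With GSK591 6 rose and 2 fell against untreated cells, where 11% of all genes were called in either direction, and the median log2 fold change was 0.09 beside -0.01 for all genes. With MS023 5 rose and 2 fell, where 7.63% of all genes were called, and the median was 0.13 beside -0.01. SESN2, a stress-induced inhibitor of mTORC1 signalling, rose by 0.67 ± 0.13 SE and 0.88 ± 0.13 (edgeR adjusted p 0.00033 and 5.05e-06). IER5, an activator of heat shock factor, rose by 0.50 ± 0.094 and 0.62 ± 0.094 (edgeR adjusted p 0.00023 and 9.6e-06). The cytokine gene LIF fell by 0.64 and 0.45 on the log2 scale (edgeR adjusted p 0.00020 and 0.012).

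Of 28 genes in a list of p53 pathway regulators, 24 were tested. With GSK591 2 rose and 2 fell at 3 h against untreated cells, where 11% of all genes were called in either direction, and with MS023 2 rose and 0 fell, where 7.63% were. JMY, a p53 cofactor and actin nucleator, rose by 0.99 ± 0.15 SE and 1.02 ± 0.15 (edgeR adjusted p 7.77e-06 and 7.05e-06). COP1, a ubiquitin ligase that targets p53, rose by 0.59 ± 0.14 and 0.50 ± 0.14 (edgeR adjusted p 0.0032 and 0.020). With GSK591, MDM4 fell by 0.46 (SE 0.15, edgeR adjusted p 0.047), from 30.9 ± 4.52 to 22.6 ± 1.16 CPM (mean ± SD, n = 2). At 15 min of GSK591 it stood at 26.3 ± 2.62 CPM, and it was not called between 15 min and 3 h. After 3 h of MS023 it stood at 25.7 ± 7.10 CPM and was not called. PRKDC, the catalytic subunit of the DNA-dependent kinase, fell with GSK591 by 0.39 (SE 0.12, edgeR adjusted p 0.033).

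The authors' deposited tables hold their own comparisons with the control. In the authors' deposited table for GSK591 at 3 h, 4 of the 28 p53 target genes with an adjusted p were called, all higher, where 6.07% of all genes were. They were BTG2 (1.03 on the log2 scale), FDXR (0.69), PHLDA3 (1.00) and PPM1D, each of which edgeR called too. In the authors' deposited table for MS023 at 3 h, 4 of 30 were called, all higher, where 3.17% of all genes were: BTG2 (1.12), FDXR (0.70), PHLDA3 (1.17) and RPS27L. Over the 36 genes the medians in the authors' deposited tables were 0.23 and 0.28 at 3 h. The authors' deposited table for MS023 with Dex called SERTAD1, lower, of 30 genes with an adjusted p. The authors' deposited tables for 15 min called 0 of 36 genes with an adjusted p for GSK591, 0 of 36 for MS023 and 0 of 30 for GSK591 with Dex (1, 0 and 4 at an unadjusted p under 0.05).

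The 14 genes that rose at 3 h of either inhibitor against untreated cells spanned a median of 12717 bases, from 4112 (BTG2) to 66098 (PPM1D). The 21 tested genes that were not called spanned a median of 31751 bases, from 2452 (TRIAP1) to 108383 (SESN1). Genes under 20000 bases numbered 8 in each set. The median untreated level was 8.77 RPKM in the first set and 4.48 RPKM in the second, so the sets also differed in signal per exon length. Read counts, on which the test rests, were not compared between the sets. These sets were chosen by their calls, and no test of their difference was made.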

How the data were processed

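The deposited file of read counts per gene was made with featureCounts 2.0.1 (Subread) on hg38, per the submitters' processing notes. The aligner, counted feature, strandedness and duplicate handling are not given in the sources used here. Tables that compare each of 6 treatments with the control give, per the file headers, the authors' log2 fold change and its standard error, the p-value before and after adjustment, the score of the test and the mean signal of the gene. DESeq2 is named in the submitters' processing notes. All 58780 gene identifiers matched GENCODE release 29, which supplied coordinates and 22731 blank symbols.

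The 36 genes, their roles and the further lists (p53 regulators, other p53 targets, reference genes, cell type markers) were chosen with earlier results of these data known. Counts were fitted with edgeR 4.0.16 in R 4.3.3, using filterByExpr (minimum count 10), TMM scaling and all 14 libraries with 1 coefficient per group. This left 7 residual degrees of freedom and a biological coefficient of variation of 0.0728. Each of 13 contrasts was tested by the quasi-likelihood test, and a gene was called at a Benjamini-Hochberg adjusted p under 0.05 over 21910 genes. The functions were tested on simulated data. CPM values use TMM-scaled library sizes, and RPKM divides them by exon length. No spike-in was used here, so changes are relative to the bulk of genes, and more transcription per cell cannot be told apart from more cells transcribing a gene. Every gene called in at least 1 contrast is described with its library values, and the others by counts and ranges. Alternatives were other scalings, no count filter, DESeq2 1.42.0, fits of the groups compared alone, a replicate block and leaving out each library. Some genes of the further lists enter the counts but are not reported here by name.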

Additional observations from a re-analysis of the deposited data

Results flagged for a closer look

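PHLDA3 was the gene at which the inhibitors differed. After 15 min it was higher with GSK591 than with MS023 by 0.6618 on the log2 scale (edgeR adjusted p 0.0039), and no library of one group overlapped the other. The effect of Dex on PHLDA3 also differed between the inhibitors, by -0.7341 (edgeR adjusted p 0.032). Both results use the same libraries given an inhibitor alone for 15 min, of which the MS023 replicates were at 27.9 and 39.8 CPM. Leaving out MS023 15 min replicate 1 gave 0.41 (adjusted p 0.62) and -0.48 (adjusted p 0.51). PHLDA3 shares 598 bases of exon with AC096677.2 on its own strand.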

How the results depend on the processing

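No called gene changed direction under any alternative. The counts below stand without the share of all genes called under each alternative, which is not given here. Of 68 pairs of a gene and a contrast that were called, 16 stayed called in every alternative, among them BTG2 and FDXR at 3 h against both references with both inhibitors. DESeq2 gave 7 genes for GSK591 at 3 h against untreated cells (11 in the report), 5 for Dex beside MS023 (8) and 0 for the difference of Dex effects (1). Library size alone gave 7 for MS023 at 3 h against untreated cells (11), 8 for MS023 at 3 h against 15 min (13), 2 for MS023 with Dex against untreated cells (6), and 0 for the inhibitors against each other at 15 min (1) and for the difference of Dex effects (1). Fits of the groups compared alone gave 1 for GSK591 at 15 min (0), which was PHLDA3, and 0 for the difference of Dex effects (1); the causes were not tested. Leaving out each library in turn gave 5 to 7 genes for GSK591 and 5 to 7 for MS023 at 3 h against untreated cells, 3 to 6 and 8 to 11 against 15 min, 0 to 3 and 1 to 5 for GSK591 and MS023 with Dex against untreated cells, 0 to 3 and 2 to 6 for Dex beside GSK591 and MS023, 0 to 1 for the inhibitors at 15 min and 0 to 1 for the difference of Dex effects. The replicate block kept all 68 called pairs, with 11 and 12 genes at 3 h of GSK591 and MS023 against untreated cells and 11 and 13 against 15 min. Replicate numbers did not pair the libraries, since the replicate differences of 21 pairs of groups correlated at -0.07 to 0.10 across genes. At 1 to 8 reads per library TRIM22 allows no comparison, and CMBL, TIGAR, SPATA18 and FAS, all under 10 CPM, had standard errors of log2 fold changes up to 0.56.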

Other observations

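Of the 38 further p53 targets, 1 rose and 3 fell with Dex beside GSK591, where 3.7% of all genes were called in either direction. Beside MS023 3 rose and 3 fell, where 8.97% of all genes were called. ORAI3, a subunit of store-operated calcium channels, fell by 0.59 and 0.48 on the log2 scale (edgeR adjusted p 0.0090 and 0.017). RAP2B, a small GTPase, rose beside MS023 by 0.86 ± 0.11 SE (edgeR adjusted p 1.91e-07).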
